A study of Homo sapiens with 2 samples.

Results

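The wide accessible regions of U2OS cells were 1371 stretches of open chromatin in which at least 1 of 2 ATAC-seq libraries had a single peak of 1200 bp or more. ATAC-seq cuts and tags open chromatin with the transposase Tn5, so that pileups of sequenced tags mark DNA that is free of nucleosomes. Members were the peaks on chromosomes 1 to 22 with a deposited length of 1200 bp or more in either library, merged where they overlapped by 1 bp or more. A merged region was kept where its highest pileup, the number of overlapping tags at the tallest point, was under 150 in at least 1 library or where 1 library had no peak. Of 1566 merged wide regions, 1371 met the rule and 195 with a pileup of 150 or more in both libraries did not. The members were 1371 of the 338855 regions obtained by merging all peaks of both libraries, or 0.405%.

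U2OS is an established human osteosarcoma line, grown here in DMEM with 10% FBS. Cells were infected with a control hairpin (sh-ctrl) or with a hairpin named for VNGD (sh-VNGD), the long non-coding RNA Vanguard, which the series title describes as responsive to glucose deprivation and linked to DNA repair. Each hairpin had 1 library, made from 50,000 cells with Nextera Tn5. The labels give no passage, clone or time after infection, and ATAC-seq does not measure the level of the RNA, so the knockdown was not checked here. With 1 library per hairpin no difference below has a replicate check, and no p-value is given. Every difference is between these 2 libraries. In bulk libraries, a region open in fewer cells and one less open in each cell cannot be told apart.

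Most accessible regions are short, about the gap left when a nucleosome or a pair of nucleosomes is displaced by transcription factors. Longer gaps are typical of promoters in CpG islands, stretches rich in the dinucleotide CG that are often unmethylated and can drive transcription in both directions. They also occur over short, densely transcribed genes, such as those for histones, tRNAs and small nuclear RNAs, and at strong enhancers. A peak caller draws each width from where the tag pileup crosses a threshold, so a dip inside a long open stretch divides 1 wide peak into several narrower ones.

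After removal of duplicates by the peak caller, the control library retained 22931980 of its 51628228 tags and the sh-VNGD library 31326715 of 48164322, or 1.37 times as many. The redundant share was 0.56 in sh-ctrl and 0.35 in sh-VNGD. The library labelled sh-ctrl had 202226 peaks on chromosomes 1 to 22 and that labelled sh-VNGD 285039. Peaks of 1200 bp or more numbered 1139 in sh-ctrl and 981 in sh-VNGD, so the library with more peaks and more kept tags had fewer wide ones. Their share of all peaks was 0.563% in sh-ctrl and 0.344% in sh-VNGD. Depth and duplication thus differed with the hairpin, and their part in the differences below was not tested.

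The promoters below show the sequence at 7 wide regions. ZNF276, CYB561 and KCND3 lie in the widest ones, H1-5 and KCNS3 in regions that were much wider in sh-ctrl, and DGKE and ATXN7 in regions that were much wider in sh-VNGD. Each is the 250 bases before a RefSeq start site (GRCh38.p14), written 5′ to 3′ on the strand of the gene, and capitals mark every CG dinucleotide.
ZNF276, chr16:89721287-89721536, plus strand: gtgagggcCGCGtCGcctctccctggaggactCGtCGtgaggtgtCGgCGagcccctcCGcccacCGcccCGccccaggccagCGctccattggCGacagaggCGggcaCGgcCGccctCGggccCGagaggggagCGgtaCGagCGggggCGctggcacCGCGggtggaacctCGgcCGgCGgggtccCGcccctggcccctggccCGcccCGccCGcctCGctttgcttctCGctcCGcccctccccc
CYB561, chr17:63446307-63446556, minus strand: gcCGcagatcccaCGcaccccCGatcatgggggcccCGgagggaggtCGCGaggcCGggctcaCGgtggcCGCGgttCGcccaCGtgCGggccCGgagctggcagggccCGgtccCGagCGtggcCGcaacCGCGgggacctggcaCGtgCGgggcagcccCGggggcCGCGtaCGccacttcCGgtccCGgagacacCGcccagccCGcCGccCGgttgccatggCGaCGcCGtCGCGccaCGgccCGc
KCND3, chr1:111989669-111989918, minus strand: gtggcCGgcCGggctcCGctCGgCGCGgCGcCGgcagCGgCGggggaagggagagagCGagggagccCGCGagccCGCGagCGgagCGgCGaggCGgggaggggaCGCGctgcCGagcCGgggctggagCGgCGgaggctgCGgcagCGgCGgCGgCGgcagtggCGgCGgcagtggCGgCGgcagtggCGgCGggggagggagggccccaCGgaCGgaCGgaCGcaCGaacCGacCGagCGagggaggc
H1-5, chr6:27867589-27867838, minus strand: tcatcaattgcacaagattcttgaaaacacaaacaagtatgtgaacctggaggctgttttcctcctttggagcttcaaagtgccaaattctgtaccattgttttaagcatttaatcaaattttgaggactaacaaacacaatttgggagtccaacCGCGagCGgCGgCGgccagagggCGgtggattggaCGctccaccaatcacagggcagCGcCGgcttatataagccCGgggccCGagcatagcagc
KCNS3, chr2:17878417-17878666, plus strand: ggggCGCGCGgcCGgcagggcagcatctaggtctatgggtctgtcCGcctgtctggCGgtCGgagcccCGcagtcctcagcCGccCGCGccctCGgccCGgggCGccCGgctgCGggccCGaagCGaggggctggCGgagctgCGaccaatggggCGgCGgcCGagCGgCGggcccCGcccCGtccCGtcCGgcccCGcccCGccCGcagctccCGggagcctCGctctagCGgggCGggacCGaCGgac
DGKE, chr17:56833901-56834150, plus strand: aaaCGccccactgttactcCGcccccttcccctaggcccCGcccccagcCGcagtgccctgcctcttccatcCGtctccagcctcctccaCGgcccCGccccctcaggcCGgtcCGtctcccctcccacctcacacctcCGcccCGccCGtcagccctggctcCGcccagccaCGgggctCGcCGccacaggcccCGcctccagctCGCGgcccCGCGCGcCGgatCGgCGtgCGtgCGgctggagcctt
ATXN7, chr3:63862894-63863143, plus strand: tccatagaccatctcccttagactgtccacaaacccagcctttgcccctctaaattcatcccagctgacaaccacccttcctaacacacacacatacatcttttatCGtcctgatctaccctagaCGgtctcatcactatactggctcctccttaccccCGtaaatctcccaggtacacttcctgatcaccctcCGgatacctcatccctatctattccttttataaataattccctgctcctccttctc

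5 of the 7 were very rich in G and C. The promoter of KCND3 was 82.8% G or C with 44 CG dinucleotides, and that of KCNS3, another voltage-gated potassium channel gene, was 81.2% with 38. The promoters of CYB561 (80%), ZNF276 (79.2%) and DGKE (76.4%) were alike in this. H1-5, which encodes a linker histone, had 49.2% and 11 CG dinucleotides, all of them in the last 100 bases. ATXN7, a subunit of the SAGA histone acetyltransferase complex, had 47.6% and 4. The GC box GGGCGG, read on either strand, was present in all of these but KCND3 and ATXN7.

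The members had a median width of 1347 bp, with quartiles of 1264 and 1480 bp and a range of 1200 to 2730 bp. Of the 1371, 307 (22.4%) spanned 1500 bp or more and 22 (1.6%) spanned 2000 bp or more. The median of the longest peak over all merged regions was 257 bp. Highest pileups of the members had a median of 95 tags in the control library and 88 in the other. Over all merged regions the higher library had a median of 16 tags. The members were chosen by these widths and pileups, which are given as a description only. Just inside the width rule lay chr1:83998565-83999764, with peaks of 693 and 1200 bp in sh-ctrl and sh-VNGD, and just outside it chr3:136752009-136753250, with 1199 and 964 bp. Just inside the pileup rule lay chr2:218406046-218407508, with 149 and 154 tags, and just outside it chr1:221741702-221743393, with 151 and 150 tags. The 195 wide regions left out had a median width of 1398 bp and reached 5764 bp.

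By library, a wide peak was found in both for 454 members (33.1%). For 539 (39.3%) the control library alone had it, and for 378 (27.6%) the sh-VNGD library alone did. A label of "only" did not mean that the other library lacked signal. All but 3 of the 1371 regions had a peak of both libraries. Where both were wide, the widths were much alike: 345 of 454 (76%) were within 10% of each other, with 182 wider in sh-ctrl and 270 wider in sh-VNGD.

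**Figure D1:**
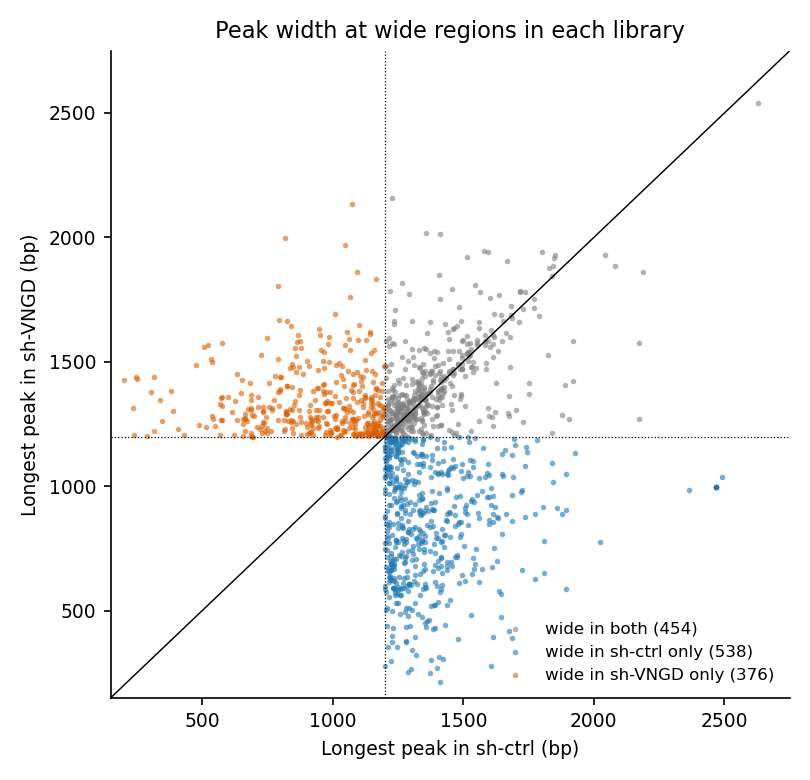
Width in bp of the longest peak in sh-ctrl (horizontal) and sh-VNGD (vertical) for the 1368 members with a peak of both libraries, 1 point per region, coloured by the library or libraries in which the peak reached 1200 bp (dotted lines). Points wide in both lie near the diagonal, while those wide in 1 library spread down to 215 bp in sh-VNGD and 200 bp in sh-ctrl.

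In the 539 regions wide in sh-ctrl only, the longest sh-VNGD peak had a median of 874 bp (quartiles 674.5 and 1050). In 354 of them (65.7%) sh-VNGD had 2 or more peaks in place of the 1 wide peak, in 184 it had 1 narrower peak, and in 1 it had none. The pieces were separated by gaps of 142 bp at the median, with a range of 51 to 893 bp. Measured from the first piece to the last, 287 of these 354 still spanned 1200 bp or more. Peaks of sh-VNGD covered a median of 84% of the bases of a region wide in sh-ctrl only.

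In the 378 regions wide in sh-VNGD only, the longest sh-ctrl peak had a median of 980 bp (quartiles 802.8 and 1121), and 147 (38.9%) had 2 or more sh-ctrl peaks, beside the 65.7% in the other direction. A single narrower peak was present in 229, with a median of 1076 bp, and 2 had none. Gaps between pieces had a median of 149 bp. Of the regions wide in sh-VNGD only, 177 (46.8%) reached 1000 to 1199 bp in sh-ctrl and so missed the limit by under 200 bp, against 172 (31.9%) in the other direction. No test of these 2 shares is possible over 1 library each.

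A change in width of 1.5-fold was counted over the 1368 members with peaks of both libraries. The longest peak was at least 1.5-fold shorter in sh-VNGD in 325 (23.8%), against 7.07% of all 144151 regions shared by the libraries. It was at least 1.5-fold longer in 149 (10.9%), against 9.1%. Among shared regions just narrower, of 800 to 1199 bp, the 2 directions were nearly even at 13.2% and 12.2%. The rule requires a peak of 1200 bp in 1 library and so raises both counts, and nothing is read from their size. Summits, the tallest points, lay within 100 bp of each other in 1107 of 1368 (80.9%), against 85.8% of shared regions of 400 to 799 bp, and over 500 bp apart in 130.

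The single widest member, chr16:89720211-89722940 at 2730 bp, covers the shared promoter of ZNF276, a zinc finger gene, and VPS9D1. Their start sites there lie 104 bp apart on opposite strands. The ZNF276 sequence shown above precedes another listed start, at chr16:89721537, and holds neither start of that pair. The highest pileup of the region was 129 tags in the control library and 93 in the other. The longest peak was 2172 bp in sh-ctrl, beside another of 430 bp, and 1575 bp in sh-VNGD, beside pieces of 652 and 249 bp. The region around the start of KCND3, chr1:111989451-111991742, had peaks of 2189 and 1862 bp and pileups of 143 and 144 tags. Its tallest point was near the end away from the KCND3 start, and an end of the lncRNA gene LINC01750 also lies in it. CYB561 encodes a transmembrane electron-transfer protein of secretory vesicles. Its region, chr17:63445486-63447848, was a single peak of 2363 bp in sh-ctrl and 3 peaks of 986, 425 and 644 bp in sh-VNGD, with highest pileups of 128 and 119 tags.

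The second widest member had no protein-coding or lncRNA gene end within 1000 bp and overlapped no gene. It is chr15:99926179-99928817, with low and nearly equal pileups of 43 and 47 tags and peaks of 2628 and 2539 bp. The nearest protein-coding gene end, of ADAMTS17, is 45088 bp away. 7 of the members belong to sets with the same widths and pileups in both libraries. 5 of them, on the short arm of chromosome 21, were each 2466 bp in sh-ctrl and 998 bp at most in sh-VNGD, with 111 and 134 tags. The first is chr21:5601875-5604340 and the last chr21:7657060-7659525. The other 2, at FAM72C and FAM72D on chromosome 1, each had peaks of 820 and 1289 bp and 99 and 128 tags. Equal values at several places can come from reads that match near-identical copies, so these 7 are uncertain as separate regions. Counted once each, the sets leave 1366 members.

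The replication-dependent histone genes included 2 of the 8 regions with most excess width in sh-ctrl after the copies. These short genes lie in clusters and supply histones for newly made DNA. H1-5 and H2AC16 share chr6:27866107-27867713, a peak of 1607 bp with 74 tags in sh-ctrl. In sh-VNGD the same place had 1 peak of 276 bp with 27 tags, at the promoter end. The log2 ratio of pileup per kept tag, sh-VNGD over sh-ctrl, taken relative to the median of all shared regions, was -1.64 here, with a 95% counting interval of -2.33 to -0.99. Peaks covered 100% of the gene body of H1-5 in sh-ctrl and 17.9% in sh-VNGD.

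H1-2, another linker histone gene, lies at chr6:26054931-26056616. The sh-ctrl peak was 1686 bp with 91 tags, and sh-VNGD had 3 peaks of 351, 353 and 390 bp spread across the region. The tallest of these, with 58 tags, lay outside the gene body, and the piece at the promoter end had 46 tags. Coverage of its gene body went from 100% in sh-ctrl to 31.2% in sh-VNGD. The gene bodies of H2AC21, H3C1 and H4C1 were 61.2%, 90.9% and 92.3% covered in sh-VNGD, and each was 100% covered in sh-ctrl. H2AC12 was fully covered in both. In all, 12 of 53 histone genes listed (22.6%) lay at a wide region, against 7.01% of the 19122 protein-coding genes. They shared 6 regions, and all 6 were wide in sh-ctrl only. Relative log2 pileup ratios of these 6 ran from -1.64 to -0.64, beside a median of -0.33 for all members wide in sh-ctrl only. These 6 entered by their sh-ctrl width, which favours lower values in sh-VNGD, so their common direction tests nothing. Ratios of the listed histone genes away from wide regions are not given here. The authors' fold enrichment was mixed in direction. Its log2 ratio was -0.29 at H1-5, -0.08 at H3C1 and H4C1 and 0.15 at H1-2. At the others it was up to 0.47, at H2AC12. The background it divides by covers 10000 bp and includes the peak itself, so it is not independent of pileup. Histone genes of a cluster are similar in sequence, so reads may be divided among them.

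INO80 had a large difference in width without a measurable one in pileup. It encodes the ATPase of a remodelling complex that slides nucleosomes and acts in DNA repair. The region chr15:41115209-41116884 had a peak of 1676 bp with 52 tags in sh-ctrl. In sh-VNGD it had 2 peaks of 349 and 419 bp with 39 and 67 tags, separated by 508 bp. Its relative log2 ratio was 0.18, with an interval of -0.36 to 0.73 that includes 0. HNRNPDL, an RNA-binding protein gene, and ENOPH1, a methionine salvage enzyme gene, share chr4:82428859-82430880, whose 2022 bp peak with 115 tags in sh-ctrl stood against 3 peaks of 241, 389 and 775 bp in sh-VNGD. KCNS3, at chr2:17878334-17880228, had 1895 bp and 118 tags in sh-ctrl and pieces of 502 and 586 bp with up to 102 tags in sh-VNGD.

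Wider peaks in sh-VNGD were found at other promoters. DGKE, a diacylglycerol kinase gene, and C17orf67 share chr17:56833141-56835136. That region had peaks of 816 and 693 bp in sh-ctrl and a single peak of 1996 bp in sh-VNGD, with highest pileups of 135 and 146 tags. ATXN7 and THOC7 share chr3:63862914-63865046, with peaks of 1073 and 638 bp in sh-ctrl and 2133 bp in sh-VNGD, and pileups of 72 and 105 tags. At ANKRD12, on chromosome 18, the longest peak was 1229 bp in sh-ctrl and 2159 bp in sh-VNGD, with 134 and 139 tags. The counting intervals of the relative ratio at these 3 all included 0. The 3 promoters thus differed between libraries in the width of the longest peak and not measurably in pileup. In sh-ctrl the pieces were separated by gaps of 150, 94 and 163 bp.

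**Figure D2:**
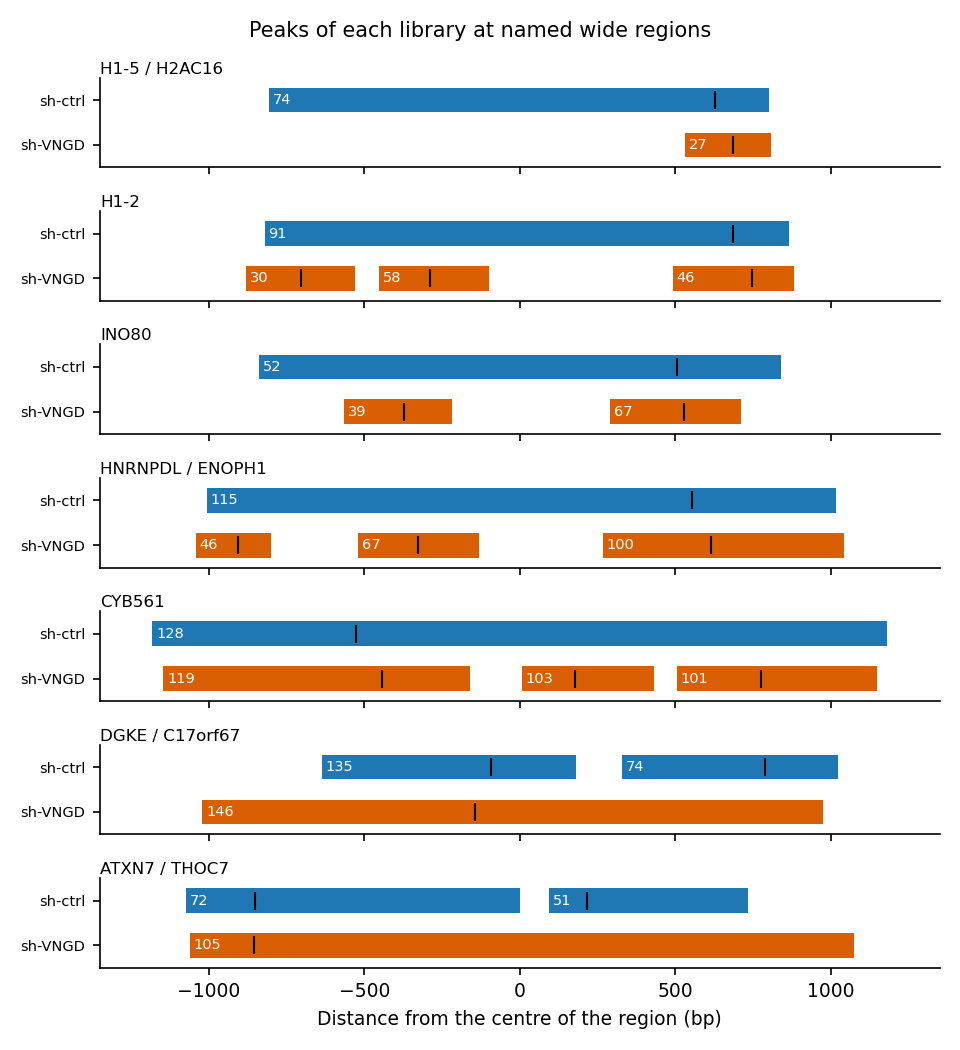
Peaks of sh-ctrl (blue) and sh-VNGD (orange) at 7 named wide regions, drawn to scale as distance in bp from the centre of all peaks shown, with black ticks at summits and the highest pileup of each peak in tags written in its bar. The first 5 have 1 sh-ctrl peak that sh-VNGD divides or shortens, and the last 2 have 1 sh-VNGD peak where sh-ctrl has a pair.

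Some sh-VNGD-wide regions were weak and lay inside long genes. One in CYP2C19, a drug-metabolising cytochrome gene, had a longest peak of 316 bp in sh-ctrl and 1440 bp in sh-VNGD, with 21 and 19 tags. A region in KCNQ5, a potassium channel gene, had 247 and 1439 bp with 13 and 21 tags. One in ADGRL3, an adhesion receptor gene, had 200 and 1426 bp with 13 and 33 tags. The edges of such peaks rest on few tags. The 3 members with no peak of the other library were weak as well. They were chr13:113725287-113726515 in GRK1, a photoreceptor kinase gene (14 tags, sh-ctrl), chr14:44643426-44644650 away from genes (16 tags, sh-VNGD) and chr17:30440616-30441999 in CPD, a carboxypeptidase gene (19 tags, sh-VNGD).

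Most wide regions lay at gene ends. A protein-coding gene had an end or a listed start site within 1000 bp of 1066 of the 1371 members (77.8%, 95% Wilson interval 75.5 to 79.9), against 6.86% of all merged regions and 12.1% of regions shared by both libraries. A long region meets a fixed window more easily, so the distance was also taken from the summit alone, which gave 75.6% of members against 6.33% of all regions. The gene table gives no strand, so that an end may be the 5′ or the 3′ end. Start sites listed by RefSeq, which cover 15100 of 19122 protein-coding genes and none on chromosome 8, lay within 1000 bp of 909 of the 1313 members on other chromosomes (69.2%). The wide regions left out for high pileup had almost the same share of gene ends as the members, 79%. Intervals here cover counting of regions only, and regions of 1 library are not replicates.

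Width and gene content rose together at matched pileup. Among shared regions whose highest pileup was 80 to 119 tags, a protein-coding gene end lay within 1000 bp of 18.5% of those 200 to 399 bp wide. The share was 26.4% at 400 to 599 bp, 39.8% at 600 to 799 bp and 43.9% at 800 to 999 bp. It then stepped to 71.9% at 1000 to 1199 bp (95% interval 68.6 to 75) and 82.7% at 1200 bp or more (79.2 to 85.7). The step between 800 to 999 bp and 1000 to 1199 bp was larger at 120 to 149 tags, from 40.9% to 78.3%, and smaller at 30 to 49 tags, from 33.2% to 40.2%. Measured from the summit, the shares at 80 to 119 tags were 42.6% and 70.5% on either side of the step.

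**Figure D3:**
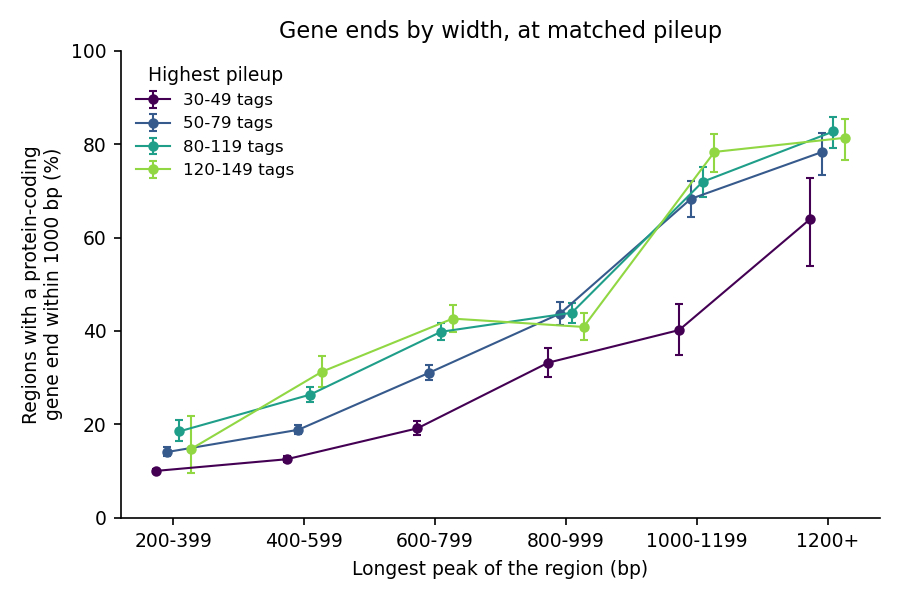
Percent of shared regions with a protein-coding gene end within 1000 bp (vertical) by the width in bp of the longest peak (horizontal), in 4 bands of highest pileup, with 95% Wilson intervals. The 3 bands from 50 tags up rise to between 68.3% and 78.3% at 1000 to 1199 bp, while the band of 30 to 49 tags is at 40.2% there.

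The share was lower in the weakest members and in those with 150 tags or more in 1 library. Of the 18 with a highest pileup of 20 to 29 tags, 27.8% had a protein-coding gene end within 1000 bp, and of the 6 under 20 tags 1 did. Of the 111 members with 150 tags or more in their higher library, 66.7% (57.5 to 74.8) did. By the rule, these 111 had under 150 tags in the other library. The left-out wide regions, with 150 tags or more in both, had a share of 79%. None of the 24 weakest was wide in both libraries. Among the 515 members at 80 to 119 tags, 185 were. By class, gene ends lay near 82.2% of members wide in both (interval 78.4 to 85.4), 81.2% of those wide in sh-VNGD only (77 to 84.8) and 71.6% of those wide in sh-ctrl only (67.7 to 75.3). The classes rest on 1 library each, so the order of these shares was not tested.

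Inside the members, 800 held the end of exactly 1 protein-coding gene, 217 of 2 and 4 of 3. The end of a lncRNA gene lay inside 305 (22.2%). Listed starts on both strands were present in 346 of 1313 members (26.4%). In 117 members a protein-coding pair pointed away from each other, with start sites 207 bp apart at the median and 4 to 1082 bp apart in all. Among these pairs were VPS35, an endosome sorting gene, with ORC6, an origin recognition subunit gene, and PPAT with PAICS, which encode enzymes of purine synthesis. VPS35 and ORC6 had a region of 1904 bp, with peaks of 1825 and 1529 bp, and PPAT and PAICS one of 1652 bp, with peaks of 1652 and 1041 bp. FOXA1, a pioneer transcription factor gene, and TTC6 had peaks of 1738 and 1782 bp. Of the 117 pairs, 38 were wide in both. Another 49 were wide just in the control library and 30 just in sh-VNGD.

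Where a member held just 1 listed start and no end of another gene, its reach to either side could be measured. The far end of the same gene could lie inside, as at H1-2 and H1-5. In these 369 members the open stretch reached 563 bp upstream of the start (quartiles 399 and 852) and 774 bp downstream (530 and 982), at the median. It reached farther downstream than upstream in 231 (62.6%, interval 57.6 to 67.4). In 2013 shared regions of 600 to 999 bp with pileups of 50 to 149 tags, the medians were 413 bp upstream and 367 bp downstream, and 46.1% (43.9 to 48.2) reached farther downstream. The added width of the members was thus mostly on the gene's side of the start, 407 bp more at the median against 150 bp more upstream.

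**Figure D4:**
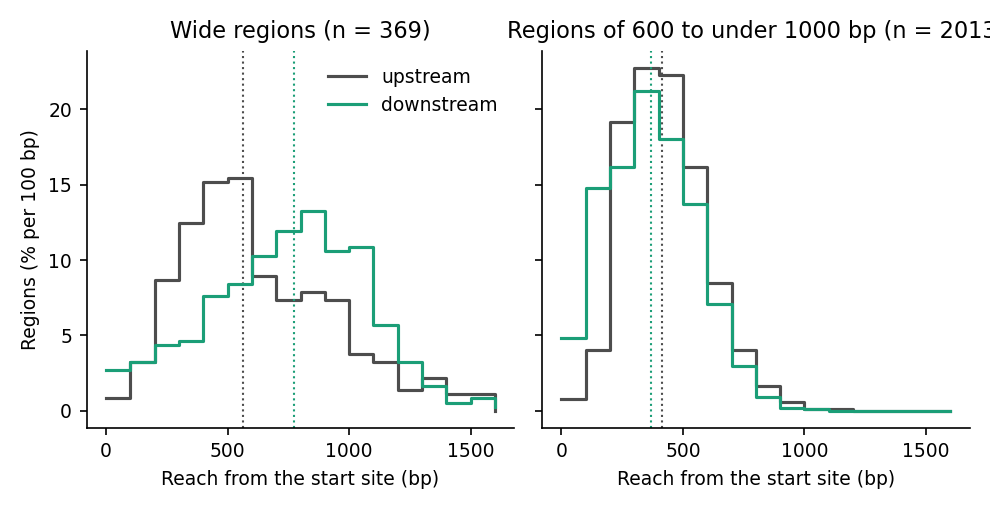
Reach in bp of the open region upstream (grey) and downstream (green) of its only listed start site, as percent of regions per 100 bp, for 369 wide members (left) and 2013 shared regions of 600 to 999 bp (right), with dotted lines at medians. Wide members are shifted downstream, with medians of 563 bp upstream and 774 bp downstream.

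Sequence windows of 300 bases around 1336 start sites (1031 genes) inside the members were richer in G and C than those of all 21155 protein-coding start sites in the table. Their median was 68% against 62.7%, and the ratio of observed to expected CG dinucleotides was 0.88 against 0.74. Most of that difference was shared with narrower promoter regions. For 1463 starts inside shared regions of 400 to 799 bp with pileups of 80 to 119 tags, the values were 66% and 0.85. The GC box GGGCGG, searched on both strands as were all motifs, was in 76.4% of windows at members, 75.8% at the narrower regions and 56.6% of all. The TATA box TATAAA was in 4.19%, 4.58% and 9.51%. The CCAAT box, with the letters CCAAT, was in 31.1% of windows at members (interval 28.6 to 33.6), 41.5% at narrower regions (39 to 44) and 34.4% of all. AP-1 (TGANTCA) was in 2.77%, 4.37% and 6.08%. A match is a run of letters in the window and not a bound site, and several starts of a gene can share bases.

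In all, 1341 of 19122 protein-coding genes (7.01%) had an end or start within 1000 bp of a wide region, as did 373 of 17795 lncRNA genes (2.1%). Lists of genes chosen for their roles were read against the first of these. The hosts of non-coding RNA were read against the second. Splicing factors and hnRNPs, which process nascent RNA, had the largest share of the 19 lists, 9 of 30 genes. Chromatin remodellers and HMG proteins had 8 of 38, and genes of glucose metabolism and AMPK 5 of 32. YAP and TEAD targets and cofactors had 4 of 25. Cell cycle and replication genes (4 of 40), ribosomal protein genes (4 of 42), HOX genes (2 of 39) and genes of the actin cytoskeleton and adhesion (2 of 30) were close to the share of all genes or a little above or below it. DNA repair genes had 2 of 50, immediate early genes 1 of 30, stress response genes 1 of 28, and osteoblast and mesenchymal genes 1 of 30. None of 26 extracellular matrix genes or of 21 hosts of non-coding RNA had one. In the host, splicing and cell cycle lists, 1 further gene each lay only at a wide region left out for high pileup.

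**Figure D5:**
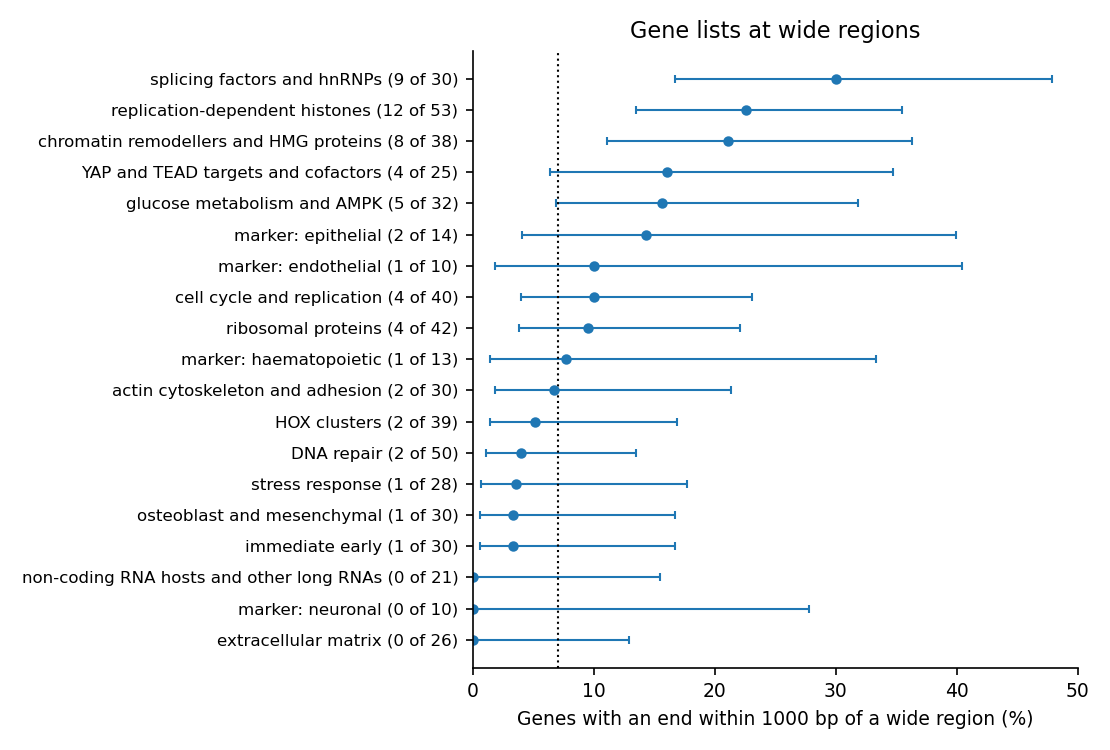
Percent of the genes of each list that have an end or start within 1000 bp of a wide region, with 95% Wilson intervals and a dotted line at the 7.01% of all protein-coding genes. The 3 lists whose intervals lie above the line are splicing factors and hnRNPs, replication-dependent histones, and chromatin remodellers and HMG proteins. For the hosts of non-coding RNA the like share is the 2.1% of lncRNA genes, which is not drawn. The intervals count each gene as separate, but genes can share a region, as the 12 histone genes share 6, so that interval is too narrow.

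The 9 splicing genes were SRSF1, SRSF2, SRSF7, HNRNPA2B1, HNRNPDL, HNRNPK, U2AF2, DDX5 and SON. Their 10 regions had a median relative log2 pileup ratio of -0.42, beside -0.29 for all members. SRSF1, an SR protein that defines exons, had 2 regions. The one with its listed start, chr17:58007001-58008240, had nearly equal widths of 1240 and 1188 bp in sh-ctrl and sh-VNGD, with 115 and 82 tags. The other, chr17:57987609-57989349, had 1741 bp in sh-ctrl and 1159 bp, the longer of 2 peaks, in sh-VNGD, with 96 and 67 tags. It was matched at another end of the gene and not at that start. Whether it belongs to SRSF1 or to a neighbouring gene was not tested. DDX5, an RNA helicase gene, went the other way in width, with 1054 and 1619 bp and nearly equal pileups of 133 and 131 tags. At U2AF2, which recognises the 3′ splice site, the longest peak was 1482 bp with 73 tags in sh-ctrl and 857 bp with 53 tags in sh-VNGD.

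The HMG genes encode small proteins that bind nucleosomes or bend DNA. HMGB1 (165 and 141 tags) and HMGN4 (102 and 88 tags) were wide in both libraries. Widths given for listed genes are those of the longest peak of each library. HMGB2 had 1438 bp in sh-ctrl and 697 bp in sh-VNGD with 141 and 148 tags. HMGN2 had 1439 and 662 bp with 81 and 85 tags. At both, sh-VNGD had 2 peaks in place of the 1 in sh-ctrl. HMGN1 was the reverse, with 2 peaks of up to 916 bp in sh-ctrl and 1 of 1272 bp in sh-VNGD. CHD3, a remodeller ATPase gene, had 1 peak of 1478 bp in sh-ctrl and 2 of up to 385 bp in sh-VNGD. Its highest pileups were 101 and 93 tags. SS18, a subunit gene of the BAF remodelling complex, had 1410 and 1752 bp with 93 and 67 tags. Longest peaks on this list thus differed in width in both directions, at pileups that mostly differed little.

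Of the metabolic genes, PRKAA1, which encodes the AMPK catalytic subunit alpha-1, was wide in both libraries at its promoter, with 1229 and 1576 bp and 122 and 113 tags. SLC2A1, the main glucose transporter gene, had 1196 and 1209 bp with 115 and 112 tags, and so lay just on either side of the limit. HK1, which starts glycolysis, had 1321 bp in sh-ctrl and 607 bp in sh-VNGD with 84 and 77 tags. GAPDH had 1377 and 862 bp with 133 and 114 tags. PKM, a pyruvate kinase gene, had 1216 and 836 bp with 112 and 96 tags. In sh-VNGD, HK1 and GAPDH had 2 peaks each, while PKM had 1. The 2 DNA repair genes were wide in sh-ctrl only. CHEK1, a checkpoint kinase gene, had 1467 and 715 bp with 110 and 71 tags. ERCC1, a subunit of a repair nuclease, lay within 1000 bp of a region with 1808 and 652 bp and 90 and 97 tags. That region holds the start sites of PPP1R13L and POLR1G. The sh-VNGD library had 2 peaks at CHEK1 and 3 at the region near ERCC1.

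TGFB2, VGLL4 and AMOTL2, of the YAP and TEAD list, were wide in both libraries. TGFB2, a growth factor gene, had 1352 and 1348 bp and 110 and 124 tags. AMOTL2, a YAP inhibitor gene, had 1309 and 1224 bp and 131 and 109 tags. CCND3 and CDK6, which drive entry into S phase, were wide in both libraries as well. CCND1, the cyclin D1 gene, had 1262 and 995 bp with 174 and 122 tags. MYC had 1389 bp in sh-ctrl and 770 bp, the longer of 2 peaks, in sh-VNGD, with 140 and 92 tags. HOXC13 had 1753 and 1417 bp with 147 and 144 tags.

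Markers of other cell types were checked. Epithelial markers had 2 of 14 genes at wide regions, KRT19 and EPCAM, haematopoietic markers 1 of 13 (CD8A), endothelial markers 1 of 10 (ERG) and neuronal markers 0 of 10. Another 2 epithelial markers lay only at wide regions left out for high pileup. KRT19 had 119 and 97 tags, EPCAM 139 and 108, and CD8A 116 and 80. These show open chromatin at the gene's end in cells labelled U2OS, and say nothing of its expression. TWIST1 was the single gene of the osteoblast and mesenchymal list. Its region, chr7:19116293-19117498, had a longest peak of 1206 bp with just 12 tags in sh-ctrl and 848 bp with 41 tags in sh-VNGD.

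Genes of short RNAs, which RNA polymerase II or III transcribes at high rates, were also found in the members. A tRNA gene lay in 24 members (1.75%, interval 1.18 to 2.59), against 0.476% of shared regions with pileups of 50 to 149 tags. Wider regions overlap more genes by their length alone, so the distance was again taken from the summit, which put a tRNA gene within 1000 bp of 1.68% and 0.515%. 11 of these 24 had a protein-coding gene end within 1000 bp. An example away from such ends is chr16:57299509-57300930, which holds TRL-CAG2-1 and TRL-CAG2-2, with 1422 and 1374 bp and 127 and 126 tags. 12 of the 24 were wide in both libraries, and their relative log2 ratios had a median of -0.27 (range -0.89 to 0.27).

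A small nuclear RNA gene lay in 14 members (1.02%, interval 0.609 to 1.71), against 0.121% of the same shared regions, and within 1000 bp of the summit in 1.02% and 0.153%. 10 were U1 genes or U1 variants on chromosome 1, among them RNU1-1 (193 and 144 tags), RNU1-2 (186 and 129 tags) and RNVU1-18 (152 and 127 tags). U1 is the RNA that pairs with the 5′ splice site. RNU5D-1 had 1306 and 727 bp with 166 and 82 tags. RNU7-1, whose RNA trims the 3′ ends of histone transcripts, had 1440 and 1061 bp with 139 and 111 tags. At both, sh-VNGD had 2 peaks, and the width of the longer is given. Relative log2 ratios of all 14 ran from -1.20 to -0.01, with a median of -0.56. U1 copies are alike in sequence, so their values are not fully separate. A miRNA gene lay in 15 members (1.09%), against 0.274%, and within 1000 bp of the summit in 1.24% and 0.623%. One was MIRLET7I, at chr12:62602329-62603912, with 1494 and 1584 bp and 127 and 121 tags.

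The 246 members with no end of a protein-coding or lncRNA gene within 1000 bp were of the same width as the rest. Their median was 1346 bp. Genes of other kinds were not counted here, and chr12:124939154-124941084, for example, holds tRNA genes. The highest pileups of the 246 had a median of 95 tags, against 98 for members with a protein-coding gene end. The nearest protein-coding gene end was 25714 bp away at the median, and over 50000 bp away in 72. Of the 246, 61 were wide in both, 124 just in the control library and 61 just in sh-VNGD. This was 50.4% (44.2 to 56.6) wide in sh-ctrl only, against 36.2% (33.4 to 39.1) of the 1066 members with a protein-coding gene end. An example is chr4:142473296-142475077, inside the phosphatase gene INPP4B and 68657 bp from its nearest end, with 1564 and 1782 bp and 133 and 74 tags. A weaker one is chr6:21587157-21588960, 5861 bp from SOX4, with 792 and 1804 bp and 47 and 36 tags.

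Pileup at the members was lower in sh-VNGD once scaled to kept tags. Per kept tag, the log2 ratio of the highest pileup had a median of -0.55 over the 1368 members, against -0.26 over all 144151 shared regions. The scaling sets this level, since the median was -0.10 unscaled and -0.00 scaled to all tags read. The difference from all shared regions does not depend on the scaling, and was -0.29 (quartiles -0.46 and -0.11). Shared regions with pileups of 50 to 149 tags, which the members resemble in height, had a median of -0.19 on the same scale. By class, the median was -0.28 for members wide in both, -0.33 for those wide in sh-ctrl only and -0.23 for those wide in sh-VNGD only. The rule uses pileup and width, so these values describe the members and test nothing.

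The authors' fold enrichment, which divides a pileup by the local background, differed less between the libraries. Its background window of 10000 bp includes the peak itself, so fold enrichment is not independent of the width and pileup of the peak. Its log2 ratio had a median of -0.11 in members and -0.09 in all shared regions, a difference of -0.02. The local background itself, recovered from pileup and fold enrichment, had a median log2 ratio per kept tag of -0.42 in members and -0.00 in all shared regions. Unscaled, these were 0.03 and 0.45. Relative to all shared regions, background and pileup were thus both lower in sh-VNGD at the members. Their ratio hardly differed from that of all regions. How much of the background came from the wide peaks themselves was not tested.

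Relative to the median of shared regions, the pileup was at least 2-fold lower in sh-VNGD in 48 members (3.51%), against 2.96% of all shared regions. It was at least 2-fold higher in 4 members (0.292%), against 2.25%. These shares are not matched in height. Over all merged regions the higher library had a median of 16 tags, and ratios of low counts vary more. A share at matched pileup is not given here. Of the 48, 8 were wide in both, 35 just in the control library and 5 just in sh-VNGD. Just 10 of these 48 had a protein-coding gene end within 1000 bp, where 1066 of all 1371 members did. The 5 lowest ratios were all away from such ends. They lay at chr15:92869190-92870391, 30853 bp from CHD2 (102 and 26 tags, -2.16), at chr1:110097928-110099269 in LINC01397 (84 and 24 tags, -1.99) and at chr17:1966400-1967713 in RTN4RL1 (92 and 28 tags, -1.90). The other two were chr5:40774745-40775987 in PRKAA1, 16158 bp from its nearest end (101 and 33 tags, -1.80), and chr1:36834644-36835888 in GRIK3 (62 and 21 tags, -1.75).

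The 10 of the 48 with a protein-coding gene end within 1000 bp included the regions of H1-5, POLE, PIK3R1 and NPNT. POLE, which encodes the catalytic subunit of a replicative polymerase, shares its region with P2RX2. It had 1344 and 1190 bp with 137 and 65 tags, a relative log2 ratio of -1.26. The 4 higher members were TWIST1 (1.59, interval 0.63 to 2.65), a region that overlaps ZNF600 and ZNF28 on chromosome 19 (1.22), one near DAB2IP (1.16) and the region in ADGRL3 (1.16). Each had 11 to 14 tags in sh-ctrl, so that their intervals are wide.

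Chromosomes differed in how many of their regions were wide. Members made up 0.683% of the merged regions of chromosome 21 and 0.615% of chromosome 16, against 0.405% overall and 0.191% of chromosome 22. Of the 32 on chromosome 21, 5 are the copies named above.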

How the data were processed

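ATAC-seq of U2OS cells (2 libraries) was analysed from the deposited peak tables. Per the submitters' processing notes, Bowtie2 2.2.5, MACS2 2.1.2 and deepTools were used with the hg38 build; per the file headers, peaks were called with MACS 2.1.0.20150731 with a shift of 100, an extension of 200, a q cutoff of 0.05 and a local background window of 10000 bp. Per the file headers, pileup is a deposited signal that counts the tags overlapping the summit after the duplicate filter. The deposited fold enrichment is the ratio of that pileup to the local background. The deposited -log10 q value was used for filtering in alternatives only. Peak length is in bp, as the authors gave it. A deposited shorter list of the same peaks held equal values and was not used further.

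Peaks on chromosomes 1 to 22 were kept and 57 wide peaks of each library on other sequences were left out. Regions sharing 1 bp or more were merged, and the longest peak and highest pileup of each library were taken. Log2 pileup ratios were scaled to kept tags and centred on shared regions; their 95% intervals are exact for tag counts and cover counting error only. Ends of protein-coding and lncRNA genes came from RefSeq (GRCh38.p14), with listed starts where given. Of 570 gene list entries, 561 matched. Members and gene lists were chosen with earlier results of these data known. Named regions are the 10 widest, the 5 with most excess width in each library, all with no peak of the other library, the 5 highest and 5 lowest ratios, up to 3 members per list, and the regions nearest each limit; others named here, among them histone, HMG, short RNA and divergent gene regions and those of excess width beyond the copies, were chosen after their values were seen. Merging, class and interval code was tested on simulated data. Python 3.11.15, pandas 2.3.3, NumPy 2.4.6, SciPy 1.17.1 and matplotlib 3.10.9 were used.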

Additional observations from a re-analysis of the deposited data

How the results depend on the processing

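No paired analysis was possible because each hairpin has 1 library and the labels carry no replicate numbers; for the same reason no library could be left out. A width minimum of 1000 bp gave 3571 regions (1476 wide in both, 1168 in the control library alone, 927 in sh-VNGD alone) at 3058 protein-coding genes, and 1500 bp gave 289 (66, 130 and 93). No pileup limit, a limit of 100 tags, or merging within 500 bp, which joined none, kept the number within 1.5 times. By covered bases in place of the longest peak, the median in the other library was 1110 bp for regions wide in sh-ctrl only and 1080 bp for those wide in sh-VNGD only. The share divided into 2 or more peaks was 61.4% and 32.8% with a -log10 q of at least 5. It was 60.1% for sh-ctrl only with equal numbers of peaks. With width minimums chosen after seeing the data it was 55.8% and 33.4% (1000 bp) and 79.2% and 44.1% (1500 bp), so it stayed higher for sh-ctrl only in each. Gene ends lay near 74.5% with no window, 81% within 5000 bp and 69.2% for listed starts, an alternative added after seeing the data. The median log2 pileup ratio of -0.55 became -0.10 unscaled, -0.00 scaled to all tags read, -0.11 for fold enrichment and -0.48 for summed pileups. Relative to all shared regions, -0.29 became -0.02 for fold enrichment and -0.22 for summed pileups. The fold enrichment ratio was -0.08 at 1500 bp, also added after seeing the data. Of 55 alternative values, 23 stayed within the counting interval or 1.5 times the count, and none changed sign. Of genes listed, DNA repair went from 2 to 16 at a minimum of 1000 bp. Depth limits weak members most, since pileups of 11 to 30 tags give wide intervals.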
